A study of Homo sapiens with 16 samples.

Results

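The 8 samples described here are OCI-AML2 cells after knockdown of SUV3, taken on days 3, 4, 5 and 6 in each of 2 biological replicates that carry the numbers 1595 and 1727. They are 8 of the 16 samples of the series. The other 8 are the same cells after knockdown of PNPase, with replicates 545 and 1717 and the same 4 days. OCI-AML2 is an established human acute myeloid leukaemia cell line, grown in IMDM with serum, and both genes were knocked down by transduced shRNA constructs. Expression was read on the NanoString nCounter Human Immunology v2 panel, in which each target RNA is hybridised to a fluorescent barcode and counted without amplification. The samples were chosen by their labels alone, and the comparison is day 3 (1 sample a replicate) against days 4, 5 and 6 of the same replicate. The sources used here do not say what the replicate numbers stand for, whether different shRNA constructs underlie them, or whether the days were drawn from 1 culture. No control cells are analysed here, and the genes that encode SUV3 and PNPase are not among those analysed here. Every change below is therefore a change between days of knockdown cells, and the knockdown itself could not be checked.

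SUV3 is an RNA helicase of the mitochondrial matrix and PNPase is a 3′ to 5′ exoribonuclease. Together they form the mitochondrial degradosome, which removes surplus and antisense mitochondrial transcripts. Loss of this activity is known to let double-stranded RNA of mitochondrial origin build up, and such RNA can reach the cytosolic sensor MDA5 (gene IFIH1) and start an interferon response. The panel also covers 2 other fast programmes of a stressed myeloid cell. One is the damage response programme of growth arrest and apoptosis, the other the NF-kappaB and early response programme of chemokines, transcription factors and feedback inhibitors.

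Of the 594 genes measured, 579 immune genes and 15 housekeeping genes, 360 lay above the negative controls in the SUV3 samples. This means a mean deposited value over the 8 samples above 11.6, the mean of the 8 negative control probes plus 2 SD. CLEC4A, with a mean of 11.8, lay just inside this limit and TLR9, with 11.6, just outside. Levels below are log2(deposited value + 1), scaled to the geometric mean of the housekeeping genes. A change is the mean of days 4, 5 and 6 minus day 3 within a replicate, on that log2 scale, and folds on this scale understate the change of low genes. In the SUV3 samples the summed values of all genes ran from 313016 to 363741 on day 3 and from 315660 to 436459 later. All 12 measured myeloid markers were above the negative controls. Their scaled sum was 10484 and 22196 in the day 3 samples and ran from 11260 to 37764 later, and none of the 12 passed the test below. Of 10 T and NK cell markers only NCAM1 was above the negative controls, of 5 B cell markers 3 were, CD79B and PAX5 among them, and of 5 endothelial and stromal markers PDGFRB was. CD3D, CD3E, MS4A1, CD79A and CDH5 were not. As RNA of whole cultures was measured, fewer cells with a transcript and less of it per cell cannot be told apart.

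The question was which transcripts stood at a different level on day 3 than in the following 3 days of SUV3 knockdown. The transcripts that fell after day 3 included genes of the damage response, the early response and the chemokines. CDKN1A, which encodes the cell cycle inhibitor p21, led them. The gene lists share members, so these are not separate sets of genes. CCL3 is in the early response and chemokine lists, and FAS and BAX are in the damage response and apoptosis lists. The transcripts that rose were CCR2, a chemokine receptor of monocytes, and GFI1, a transcriptional repressor of myeloid progenitors. Limma called 21 genes at an adjusted p below 0.05, 19 lower on the later days (3.20% of the 594 genes) and 2 higher (0.337%). Of these, 17 lower genes and both higher genes lay above the negative controls. That mean includes day 3, so a gene can lie above it through day 3 alone: by the means of day 3 and of the later days taken separately, 16 lower genes and both higher genes lay above, without CCL4, and the later mean of CCL20 was 12.2. Before adjustment 107 genes had p below 0.05, 81 lower and 26 higher. All 21 genes moved in the same direction in both replicates, which their choice by the mean change of these 2 replicates favours. For all 19 lower genes both day 3 samples lay above all 6 later samples, a separation shared by 64 of the 594 genes (10.8%). For both higher genes the day 3 samples lay below all 6, as they did for 21 genes (3.54%). Among the 360 genes above the negative controls these separations held for 51 (14.2%) and 17 (4.72%), counts to which the choice of genes by a mean that includes day 3 contributes. Among the 345 genes above by both separate means, a choice made after the values were seen, they held for 50 (14.5%) and 15 (4.35%). The error of this test comes from days within a replicate. With 1 difference per replicate, limma kept CDKN1A, CCL3, PTGS2 and LIF, 4 lower genes (0.673%) and no higher one, and 63 genes passed 0.05 before adjustment. The count was 5 without day 4, 1 without day 5, 8 without day 6, 1 without replicate 1595 and 0 without replicate 1727.

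**Figure D1:**
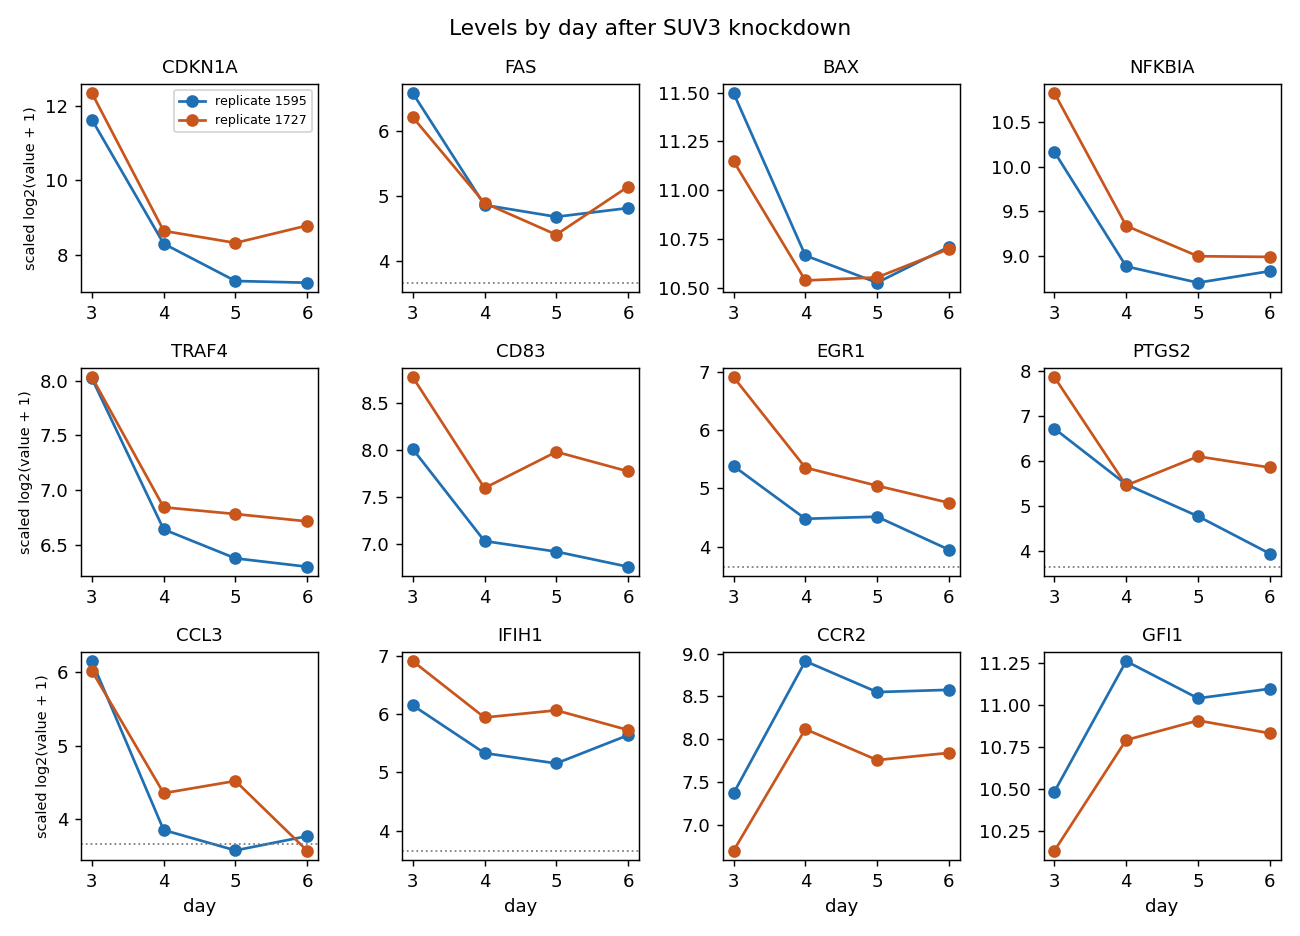
Housekeeping-scaled level, log2(value + 1), of 12 genes on days 3 to 6 of SUV3 knockdown, with 1 line for replicate 1595 and 1 for replicate 1727. The dotted grey line, drawn where it is near the data, is the negative control level of 11.6 on the same log2 scale. In 10 genes both replicates are highest on day 3, and in CCR2 and GFI1 both are lowest.

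The gene lists were chosen with earlier results of these data known, so their counts and medians are a description. The list of damage response genes had 8 measured members. Of these 3 fell, none rose and 5 did not pass, beside 3.20% of all genes that fell. Their median change was -0.43 beside -0.13 over all genes (-0.13 and 0.17 with no scaling). CDKN1A had the largest fall of the panel. Its level in replicate 1595 was 11.62 on day 3 and then 8.29, 7.29 and 7.25 on days 4, 5 and 6. The other replicate had 12.34 on day 3 and then 8.64, 8.32 and 8.78. Each day 3 sample stood far above every later sample, and the groups did not overlap. As deposited, 2481 and 4781 on day 3 stood against 167 to 524 later. The change was -3.89 ± 0.30 (SE; limma, adjusted p = 0.00195), a 14.8-fold fall. CDKN1A kept its call under 15 of 16 alternatives and lost it without replicate 1727 (limma, adjusted p = 0.138). The change there was -4.01, with day 3 reduced to 1 sample whose spread is taken from the later days.

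FAS, the death receptor, was at 6.59 on day 3 and at 4.86, 4.68 and 4.81 later in replicate 1595. Replicate 1727 had 6.22 on day 3 and then 4.89, 4.40 and 5.14. Both day 3 samples were again above all later ones, and FAS fell 3.05-fold, by 1.61 ± 0.21 (SE; limma, adjusted p = 0.0107). BAX, the pro-apoptotic BCL2 family member that opens the outer mitochondrial membrane, went from 11.50 to 10.67, 10.53 and 10.71 in replicate 1595, and the other replicate from 11.15 to 10.54, 10.55 and 10.70. It fell 1.63-fold (-0.71 ± 0.14, SE; limma, adjusted p = 0.0382), a change well below that of CDKN1A. The call for BAX was lost without scaling (change -0.40; limma, adjusted p = 0.327). PML, a nuclear body protein, was at -0.60 ± 0.17 (SE) and did not pass (limma, adjusted p = 0.113). The kinase gene ATM, CUL9 and BID had changes between -0.26 and 0.20 and did not pass, and that of CUL9 turned its sign under another scaling.

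Of the 14 measured apoptosis genes, FAS, BAX and MCL1 fell, beside 3.20% of all genes, and none rose. The median change of -0.20 (0.09 with no scaling) was close to that of all genes, -0.13 (0.17 with no scaling). MCL1, a short-lived BCL2 family protein that blocks apoptosis, had deposited values of 1481 on day 3 and 1188, 1328 and 1267 later in replicate 1595. The other replicate had 1889 and then 1344, 1339 and 1475. Day 3 lay above all later samples, here and on the scaled log2 scale, and the change was -0.65 ± 0.13 (SE; limma, adjusted p = 0.0385), lost without scaling (change -0.34; limma, adjusted p = 0.327). A pro-apoptotic and an anti-apoptotic gene of the same family thus fell over the same days. CASP8, the initiator caspase that acts below FAS, was at -0.80 ± 0.18 (SE), and the TRAIL decoy receptor TNFRSF10C at -1.44 ± 0.32 (SE). Both had day 3 samples above all later ones and neither passed (limma, adjusted p = 0.0637 and 0.0653).

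The early response genes, which are transcribed within the first hours of a stimulus, had 25 measured members. Of these 9 fell, beside 3.20% of all genes, none rose and 16 did not pass. This list too was chosen with earlier results of these data known, so the count is a description and no test. Of the 25, 21 lay above the negative controls, and the counts and medians include those that did not. The median change was -0.96 with housekeeping scaling and -0.65 with none, where all genes had -0.13 and 0.17. The 22 NF-kappaB subunits and regulators had 2 genes that fell, NFKBIA and TRAF4, and a median change of -0.08 (0.23 with no scaling). Of the subunits, NFKB1 was at -0.05 ± 0.14 (SE), NFKB2 at -0.39 ± 0.15 (SE) and RELB at -0.71 ± 0.25 (SE), and none of the 3 passed (limma, adjusted p from 0.191 to 0.9). The sign of the NFKB1 change turned under another scaling.

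The sequence upstream of a gene's start can hold sites that such programmes use. The 250 bases before the annotated start are shown for genes that stand for each programme: CDKN1A for the damage response, NFKBIA for NF-kappaB feedback, CCL20 for the chemokines, EGR1 for the early response and IFIH1 for RNA sensing. They are RefSeq sequences of GRCh38.p14, written 5′ to 3′ on the gene's strand and ending at the base before the start: CDKN1A at chr6:36678464-36678713 (plus strand), NFKBIA at chr14:35404750-35404999 (minus), CCL20 at chr2:227813592-227813841 (plus), EGR1 at chr5:138465229-138465478 (plus) and IFIH1 at chr2:162318685-162318934 (minus). Capitals mark matches, on either strand, to an NF-kappaB site, a CArG box (the site of serum response factor), a TATA box (TATAAA) or the core of an interferon-stimulated response element (GAAANNGAAA).
CDKN1A: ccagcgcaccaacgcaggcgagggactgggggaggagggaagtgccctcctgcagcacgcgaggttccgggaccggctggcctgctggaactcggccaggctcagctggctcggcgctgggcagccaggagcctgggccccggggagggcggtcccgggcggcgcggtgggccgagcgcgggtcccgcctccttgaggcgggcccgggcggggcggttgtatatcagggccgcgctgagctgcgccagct
NFKBIA: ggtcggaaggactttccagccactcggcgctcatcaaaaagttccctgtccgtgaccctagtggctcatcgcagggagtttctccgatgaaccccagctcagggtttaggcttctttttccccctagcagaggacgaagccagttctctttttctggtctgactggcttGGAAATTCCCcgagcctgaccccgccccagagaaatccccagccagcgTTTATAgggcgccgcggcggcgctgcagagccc
CCL20: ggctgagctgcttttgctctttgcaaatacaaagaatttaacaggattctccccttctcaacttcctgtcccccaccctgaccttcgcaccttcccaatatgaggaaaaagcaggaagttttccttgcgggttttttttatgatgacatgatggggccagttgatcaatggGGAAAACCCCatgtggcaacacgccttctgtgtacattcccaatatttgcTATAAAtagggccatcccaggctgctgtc
EGR1: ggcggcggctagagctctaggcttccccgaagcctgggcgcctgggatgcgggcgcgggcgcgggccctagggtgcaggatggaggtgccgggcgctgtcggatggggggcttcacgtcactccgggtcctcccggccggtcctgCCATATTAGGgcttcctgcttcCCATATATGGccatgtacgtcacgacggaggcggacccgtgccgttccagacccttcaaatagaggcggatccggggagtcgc
IFIH1: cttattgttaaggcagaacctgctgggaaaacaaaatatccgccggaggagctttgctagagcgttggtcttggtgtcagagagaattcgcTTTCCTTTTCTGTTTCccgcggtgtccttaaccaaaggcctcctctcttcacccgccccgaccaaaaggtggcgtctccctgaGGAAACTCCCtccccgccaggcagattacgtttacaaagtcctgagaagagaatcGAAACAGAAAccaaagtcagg
NFKBIA, CCL20 and IFIH1 each hold 1 match to the NF-kappaB site, in NFKBIA from 81 to 72, in CCL20 from 79 to 70 and in IFIH1 from 76 to 67 bases before the start. CCL20 also holds a TATA box on the gene's strand, from 29 to 24 bases before the start. In NFKBIA the letters TATAAA are on the opposite strand only, from 33 to 28 bases before the start. EGR1 holds 2 CArG boxes, from 105 to 96 and from 83 to 74 bases before the start. IFIH1 holds 3 matches to the interferon-stimulated response element, at 159 to 150 and 153 to 144, which overlap, and at 21 to 12. None of the 4 motifs was found in the CDKN1A window, which says only that these letters are not in it. No site particular to the damage response was among the 4 motifs searched. Of the 19 called genes above the negative controls, 17 were in the promoter table. An NF-kappaB site was found in 5 of the 17 genes (CCL20, CD83, FAS, IFIH1 and NFKBIA), beside 5.21% of 35116 windows. The TATA box letters, on either strand, were found in 5 genes, beside 10.7% of windows. A CArG box was found in 1 (1.16%) and the response element core in 1 (3.02%). The 17 genes had 26 windows, so that shares per gene and per window are not on the same footing. The 35116 windows are those of the whole promoter table and not of the immune panel. The share among panel genes was not counted, so these counts do not set the called genes apart from the panel. A match describes the sequence, and occupancy was not measured.

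NFKBIA encodes IkappaB-alpha, the inhibitor that NF-kappaB itself induces and that ends the signal. In replicate 1595 it was at 10.17 on day 3 and at 8.88, 8.70 and 8.83 on the later days. Replicate 1727 went from 10.83 to 9.34, 8.99 and 8.99. All 6 later samples lay below both day 3 samples. NFKBIA fell 2.92-fold, by 1.55 ± 0.16 (SE; limma, adjusted p = 0.0056). TRAF4, an adaptor of the TNF receptor associated family, had nearly equal day 3 levels of 8.02 and 8.03 and later levels between 6.30 and 6.84. The fall was 2.67-fold (-1.42 ± 0.15, SE; limma, adjusted p = 0.0056). TNFAIP3, the gene of the feedback inhibitor A20, had a change of 0.42 in replicate 1595 and of -0.76 in replicate 1727, and did not pass (limma, adjusted p = 0.813). The sign of its mean change turned under another scaling.

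Among transcription factors of the early response, PRDM1, which encodes the repressor BLIMP1, went from 7.11 to 5.41, 4.78 and 5.14 in replicate 1595. The other replicate went from 6.41 to 5.24, 4.88 and 4.61. The change was -1.75 ± 0.24 (SE; limma, adjusted p = 0.0114), a 3.37-fold fall. EGR1, the zinc finger factor of the serum response, differed more between replicates on day 3, with 5.38 in replicate 1595 and 6.91 in replicate 1727. Its later levels were 4.48, 4.52 and 3.95, and 5.36, 5.05 and 4.75, so that the lower day 3 sample exceeded the highest later one by little. EGR1 fell 2.75-fold (-1.46 ± 0.26, SE; limma, adjusted p = 0.0341), a call lost without scaling, where the change was -1.16 (limma, adjusted p = 0.0589). NFIL3, a basic leucine zipper factor, had day 3 levels of 8.59 and 8.37 and later levels from 7.19 to 7.77. It fell 1.94-fold, by 0.96 in each replicate (limma, adjusted p = 0.0176), and without scaling had a change of -0.65 that did not pass (limma, adjusted p = 0.0806). EGR2, a relative of EGR1, also passed (limma, adjusted p = 0.0104). It was not above the negative controls, with deposited values of 13 and 15 on day 3 and 4 to 7 later, and no fold is given.

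CD83, a surface glycoprotein of activated myeloid cells, was at 8.01 and 8.77 on day 3. Later levels lay between 6.76 and 7.04 in replicate 1595 and between 7.60 and 7.98 in the other. The replicates lay apart on every day and shared the fall, which was 2.07-fold (-1.05 ± 0.15, SE; limma, adjusted p = 0.014). Without scaling its change was -0.74 and CD83 did not pass (limma, adjusted p = 0.0913). PTGS2, which encodes the inducible cyclooxygenase COX-2, was at 6.72 on day 3 and at 5.48, 4.78 and 3.95 later in replicate 1595. In replicate 1727 it was at 7.86 and then at 5.46, 6.10 and 5.86. PTGS2 fell 4.05-fold (-2.02 ± 0.38, SE; limma, adjusted p = 0.0353) and also passed with 1 difference per replicate (limma, adjusted p = 0.0282). NFKBIZ, an inducible nuclear IkappaB protein, was among the genes whose replicates differed most: its change was -0.63 in replicate 1595 and -3.19 in replicate 1727. The deposited day 3 values were 39 and 227, and those of the later days ran from 20 to 41. NFKBIZ did not pass (limma, adjusted p = 0.113). The remaining members of the list were not all lower, as TNF at 0.08 and IL1B at 0.83 ± 0.29 (SE) show, neither of which passed.

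Of the 25 chemokine genes measured, 9 lay above the negative controls. CCL3, CCL4 and CCL20 fell, 3 of 25 beside 3.20% of all genes, and none rose. The median change was -0.29 (-0.01 with no scaling), beside -0.13 (0.17) over all genes. CCL3, an inflammatory chemokine and ligand of CCR1, read 55 and 59 as deposited on day 3 and 12, 12, 14, 19, 24 and 13 on the later days. Most later values stood just above the negative control level, so that the later level is close to the limit of measurement. CCL3 fell 4.41-fold (-2.14 ± 0.27, SE; limma, adjusted p = 0.0104) and passed with 1 difference per replicate (limma, adjusted p = 0.0282). CCL4, its close neighbour in sequence and function, read 32 and 31 on day 3 and 6 to 14 later. Limma called it lower (adjusted p = 0.02), but 4 of its 6 later values were at or below the negative control level, so no fold is given. CCL20, the ligand of CCR6, had 16 and 66 on day 3 and 5 to 24 later, also with 4 later values at or below that level (limma, adjusted p = 0.0338). Without scaling the CCL20 change was -1.49 in place of -1.79 and did not pass (limma, adjusted p = 0.0806).

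The neutrophil chemokines did not pass. IL8 had deposited values of 1355 on day 3 and 881 to 1299 later in replicate 1595, against 10431 and 2238 to 4012 in replicate 1727. CXCL2 had changes of -0.74 and -1.61 and CXCL1 of -0.61 and -0.37 in the 2 replicates. The 3 had adjusted p of 0.101, 0.06 and 0.125 in limma. Among 24 cytokines measured 1 fell, LIF, a cytokine of the interleukin-6 family (limma, adjusted p = 0.0157). Its deposited values were 15 and 22 on day 3 and 1 to 7 later, and it was not above the negative controls. IL21R, which encodes a cytokine receptor chain, was at 5.86 and 5.06 on day 3 and between 3.79 and 4.43 later. It fell 2.49-fold (-1.31 ± 0.25, SE; limma, adjusted p = 0.0381), and without scaling its change was -1.02 and did not pass (limma, adjusted p = 0.0589). The later levels of IL21R were close to the negative control level, and with negative controls subtracted its change was -1.67.

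IFIH1, which encodes MDA5, was the only gene of the 16 measured for nucleic acid sensing and of the 23 interferon-stimulated genes that passed. Its level was 6.15 on day 3 and 5.33, 5.16 and 5.64 later in replicate 1595, and 6.91 and then 5.94, 6.06 and 5.73 in replicate 1727. The day 3 samples were above all later samples, by a narrow margin in replicate 1595 against replicate 1727. IFIH1 fell 1.85-fold (-0.88 ± 0.17, SE; limma, adjusted p = 0.0385). The call was lost without scaling, with a change of -0.58 (limma, adjusted p = 0.222). The interferon-stimulated genes had 22 of 23 negative changes and a median of -0.52, where all genes had 377 of 594 and -0.13. Only 15 of the 23 lay above the negative controls, and the counts and medians include the others. Without scaling they had 16 of 23 negative changes and a median of -0.22, where all genes had 197 of 594 and 0.17. SOCS1, a feedback inhibitor of JAK kinases, was at -1.05 ± 0.29 (SE). It did not pass (limma, adjusted p = 0.11), although both day 3 samples lay above all later ones. IFIT2, an antiviral protein gene, had 9 and 47 on day 3 and 5 to 13 later as deposited, with 5 later values at or below the negative control level. TBK1, the kinase that activates IRF3 below RNA sensors, was at -0.46 ± 0.13 (SE) and IKBKE, a related kinase, at 0.43 ± 0.15 (SE), and neither passed (limma, adjusted p = 0.117 and 0.186).

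Few genes moved the other way. CCR2, the receptor through which monocytes follow CCL2, was at 7.37 on day 3 and at 8.91, 8.55 and 8.58 later in replicate 1595. Replicate 1727 had 6.70 on day 3 and then 8.12, 7.76 and 7.84. Each day 3 sample was the lowest of its replicate and below all later samples of both. CCR2 rose 2.39-fold (1.26 ± 0.16, SE; limma, adjusted p = 0.0104), and was the only 1 of 16 chemokine receptors to pass. GFI1 was at 10.48 and then at 11.26, 11.04 and 11.10 in replicate 1595, and at 10.13 and then at 10.79, 10.91 and 10.83 in replicate 1727. GFI1 rose 1.6-fold (0.68 ± 0.12, SE; limma, adjusted p = 0.0341). Neither riser passed with 1 difference per replicate (limma, adjusted p = 0.165 for CCR2 and 0.505 for GFI1).

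Of the 20 progenitor and haematopoietic transcription factor genes GFI1 was the only one that passed, and the median change was 0.09 (0.36 with no scaling). IKZF1, which encodes the lymphoid and myeloid factor Ikaros, was at 0.78 ± 0.19 (SE), and IRF8, a factor of monocyte development, at 0.44 ± 0.12 (SE). Neither passed (limma, adjusted p = 0.0804 and 0.103). CD3EAP and POLR1B, both of the RNA polymerase I machinery, were at 0.71 ± 0.17 and 0.58 ± 0.14 (SE; limma, adjusted p = 0.0804 and 0.0961). TLR2 was at 0.56 ± 0.15, FCGR1A/B, the high affinity IgG receptor, at 0.93 ± 0.27, the granule protease CTSG at 0.47 ± 0.15 and TRAF2 at 0.46 ± 0.12 (SE), none of which passed. IKZF1, TLR2 and FCGR1A/B passed without scaling (limma, adjusted p = 0.0238, 0.0359 and 0.0404). The 42 myeloid differentiation markers had no member that passed and a median change of -0.04 (0.26 with no scaling).

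**Figure D2:**
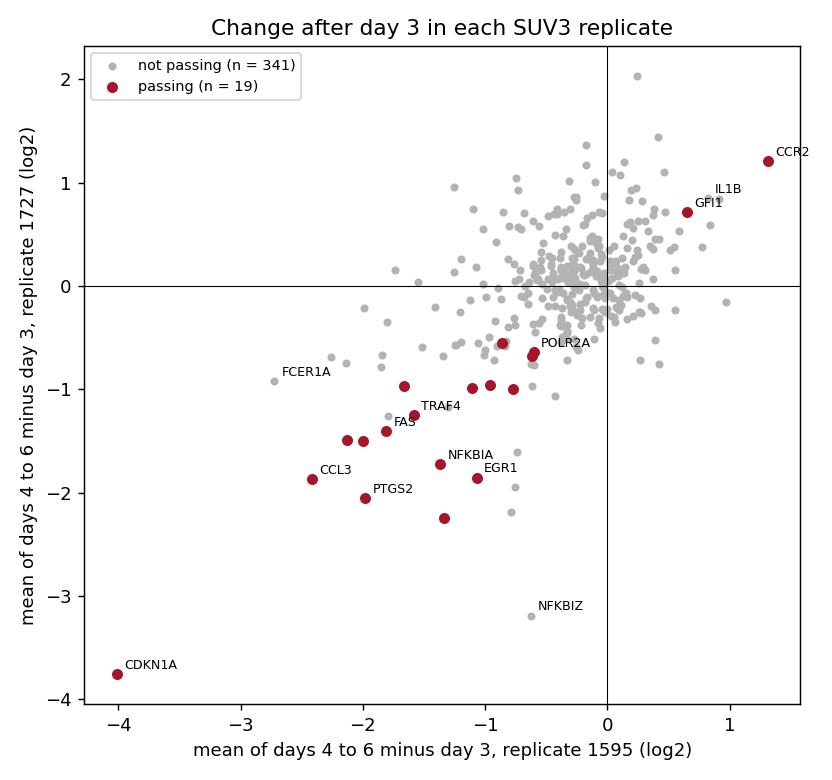
Change after day 3 (mean of days 4, 5 and 6 minus day 3, log2 scale) in replicate 1595 on the horizontal axis and in replicate 1727 on the vertical axis, for the 360 genes above the negative controls. The 19 genes that passed are red and the other 341 grey. All 19 lie in the quadrants of shared direction, which their choice by the mean of both replicates favours, with CDKN1A farthest from 0.

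The choice of scaling shifted all genes together. The housekeeping factor, the log2 mean of the 15 housekeeping genes centred over the 8 samples, was -0.35 and -0.11 on day 3 and ran from -0.17 to 0.25 later. The spiked positive controls ran from -0.07 to -0.01 on day 3 and from -0.10 to 0.12 later. The median change over all genes was -0.13 with housekeeping scaling and 0.17 with none, a shift of 0.30. No scaling means the deposited values as they stand, which per their title already carry an RUV correction. Without scaling limma called 15 genes, 10 lower and 5 higher, and 12 of the 21 genes remained. With scaling to the total it called 17, 12 lower and 5 higher, with the positive controls 15, 11 lower and 4 higher, and with the median ratio 17, 14 lower and 3 higher. The lower genes were 90.5% of the calls with housekeeping scaling and from 66.7% to 82.4% with these 4. One of the housekeeping genes moved itself: POLR2A, the largest subunit of RNA polymerase II, fell 1.54-fold (-0.62 ± 0.12, SE; limma, adjusted p = 0.0353). It was at 10.41 and then at 9.75, 9.87 and 9.82 in replicate 1595, and at 10.64 and then at 10.07, 9.97 and 9.97 in replicate 1727. The POLR2A call was lost without scaling (change -0.31; limma, adjusted p = 0.41). The 13 housekeeping genes other than POLR2A and POLR1B had changes from -0.24 to 0.25 and none passed (limma, smallest adjusted p = 0.315). Scaling to these 13 alone, tried after the values were seen, left all 21 calls in place.

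**Figure D3:**
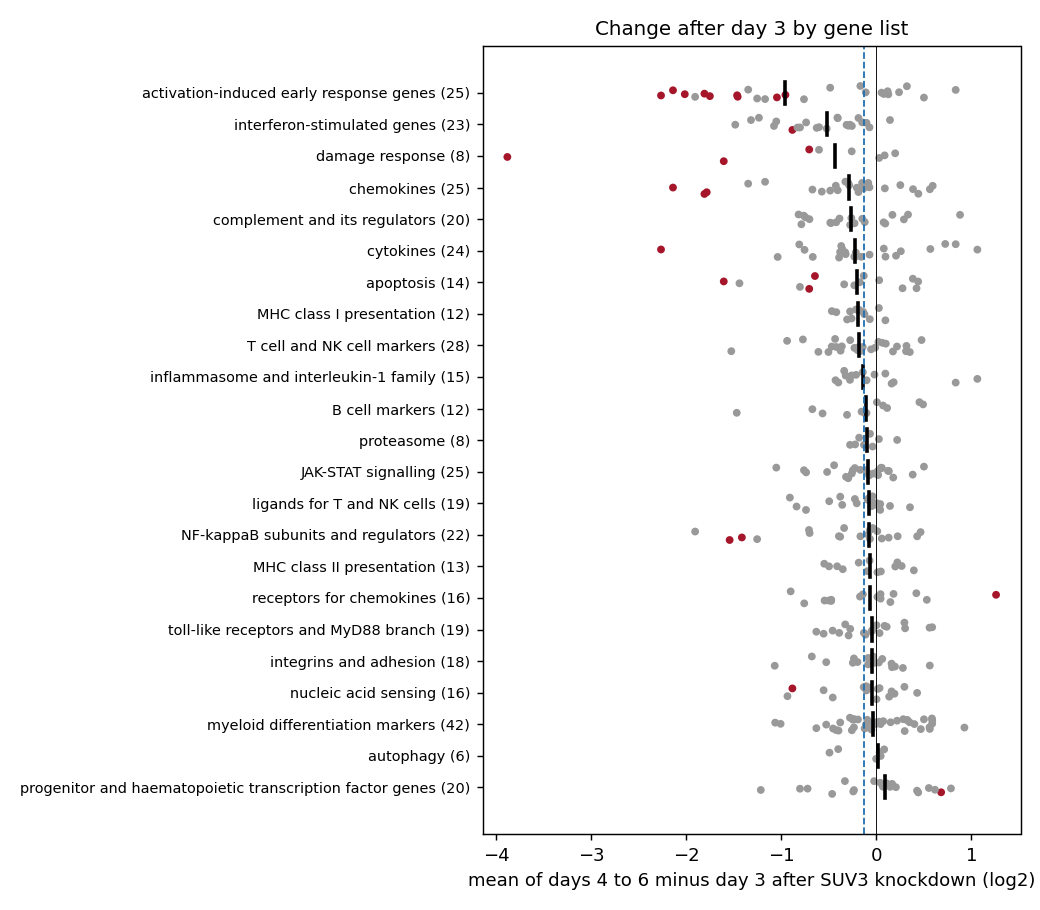
Change after day 3 (log2 scale, mean of both replicates) of each measured gene in each gene list, whether above the negative controls or not. Red points passed, the black bar is the median of the list and the dashed line the median of all 594 genes (-0.13). Among the lists named in the text, the early response genes (median -0.96) and the interferon-stimulated genes (median -0.52) lie farthest to the negative side.

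Antigen presentation genes showed no calls. The 12 genes of class I presentation had 10 negative changes and a median of -0.20 (0.11 with no scaling), with a smallest adjusted p of 0.323 in limma. The 13 genes of class II presentation had a median of -0.65 in replicate 1595 and 0.18 in replicate 1727, where all genes had -0.25 and -0.04, and a smallest adjusted p of 0.344 in limma.

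The next question was on which day the changes were present. Against day 3 alone, limma called 0 genes on day 4 (0%), 1 lower gene on day 5 (0.168%) and 1 lower gene on day 6 (0.168%). The gene was CDKN1A on both days (limma, adjusted p = 0.0247 and 0.0319), and its changes were -3.51, -4.18 and -3.97 on days 4, 5 and 6. On day 4 CDKN1A had the adjusted p of 0.0581 in limma, the smallest of that day. Before adjustment 53 genes passed 0.05 on day 4, 71 on day 5 and 75 on day 6. In the 19 called genes above the negative controls the day 4 change was between 79.7% and 118% of the mean later change, with a median of 90.6%. These genes were chosen by their mean over the 3 later days, so the shares are a description. NFKBIA had changes of -1.39, -1.65 and -1.59 on the 3 days, and CCR2 of 1.48, 1.12 and 1.18, and none of these single-day changes passed.

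The replicates were then compared with each other. Limma called 0 genes for a difference between the replicates in the change after day 3, with 91 below 0.05 before adjustment and a smallest adjusted p of 0.124. Across the 360 genes above the negative controls the changes of the replicates correlated at 0.55 (Pearson) and 0.39 (Spearman). Across all 594 genes the values were 0.21 and 0.13. Genes are not independent replicates, and both sets of changes share the panel and the scaling genes. Besides NFKBIZ, the genes with the largest differences included FCER1A, a chain of the high affinity IgE receptor, which read 99 and 11 on day 3 as deposited. Its later values were 15 to 24 in replicate 1595 and 5 to 7 in replicate 1727, the latter all at or below the negative control level. C2, of the complement cascade, was at 18 on day 3 in both replicates, and at 6 to 7 later in replicate 1595 and 23 to 25 in replicate 1727.

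The same contrast was fitted to the PNPase samples. Limma called 50 lower genes (8.42%) and 11 higher genes (1.85%) after day 3 of PNPase knockdown. Of the 21 genes called after SUV3 knockdown, 14 were called after both in the same direction, 12 lower and both higher. This is 66.7% of the SUV3 calls and 23.0% of the 61 PNPase calls. All 21 had the same sign of change in the PNPase samples. The share of all 594 genes with 1 sign in both knockdowns was not counted. The median change over all genes was negative in both, -0.13 after SUV3 and -0.23 after PNPase knockdown. CDKN1A changed by -4.10 and -5.11 in PNPase replicates 545 and 1717, beside -4.01 and -3.76 in SUV3 replicates 1595 and 1727. TRAF4 changed by -1.38 and -1.51 beside -1.58 and -1.25, and CCR2 by 1.56 and 0.99 beside 1.31 and 1.21. CDKN1A thus fell over the same days in all 4 replicates of the series.

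The change after SUV3 knockdown was then set against that after PNPase knockdown in 1 fit. Limma called 0 genes (0%) for this difference. Before adjustment 49 had p below 0.05, and 0.503 was the lowest value after it. For CDKN1A the SUV3 change minus the PNPase change was 0.72 ± 0.50 (SE; limma, adjusted p = 0.765). CCL3 differed by 1.61 ± 0.51 (SE), with changes of -2.89 and -4.61 in the PNPase replicates, and did not pass (limma, adjusted p = 0.531). POLR2A, at -0.28 and -0.10 in the PNPase replicates, differed by -0.43 ± 0.14 (SE) and did not pass either (limma, adjusted p = 0.531). IFIH1 had changes of -1.03 and -0.40 in the PNPase replicates and a difference of -0.17 ± 0.29 (SE; limma, adjusted p = 0.919). A p above the threshold does not show that the knockdowns changed alike. Across the 360 genes the mean changes of SUV3 and PNPase had a Pearson correlation of 0.81 and a Spearman correlation of 0.67. Across all 594 genes these were 0.61 and 0.49, again across genes that share the panel and its scaling.

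**Figure D4:**
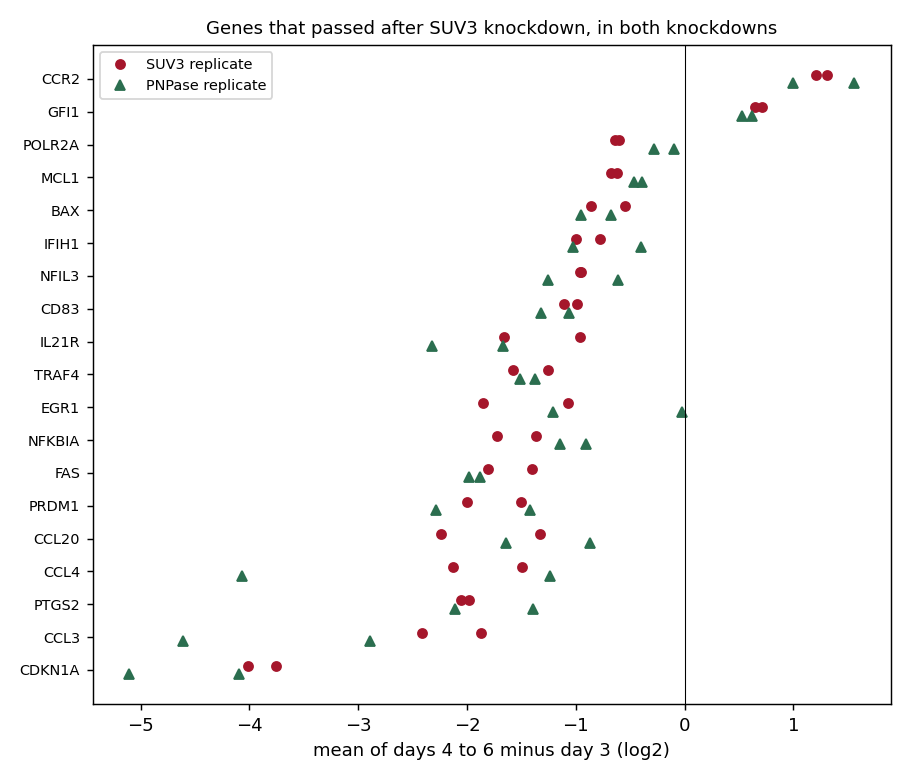
Change after day 3 (log2 scale) of the 19 called genes above the negative controls, with circles for the 2 SUV3 replicates and triangles for the 2 PNPase replicates. CDKN1A lies between -5.11 and -3.76 in all 4 replicates, and CCR2 between 0.99 and 1.56.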

How the data were processed

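The deposited table holds whole numbers per probe for 594 genes, 8 negative and 6 positive control probes. Per its title the authors had applied an RUV correction, and no further step is given in the sources used here, so the values were treated as scores and not as raw counts. A second deposited table of scores held the same values for all 594 genes. RefSeq lists 565 of the symbols as current and 12 as synonyms, 17 had no match, and all are printed as deposited. Each sample was scaled to the geometric mean of 15 housekeeping genes and set on log2(value + 1). Limma 3.58.1 in R 4.3.3 fitted the 8 SUV3 samples with replicate as a block and days 4, 5 and 6 against day 3, with Benjamini-Hochberg adjustment over 594 genes and a threshold of 0.05. The 5 residual degrees of freedom come from days within replicates, so p-values measure only the spread between these samples, which may be technical. The 1-difference fit has 1 residual degree of freedom, before moderation across genes. The pairing is the design's, 4 days from each replicate, and across genes the replicate deviations of the 6 pairs of days correlated at 0.60 to 0.88. Contrasts of single days, of replicates and of knockdowns used limma as well, the last on all 16 samples.

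Genes were named by a rule, all of them above the negative controls. It took the 15 largest passing changes a side, or, with fewer than 5, also the 10 smallest p. It also took the 4 smallest p of each of 24 lists, the housekeeping list excepted. Up to 10 genes a side with day 3 apart from the later days were added. So were 6 each that differed most between replicates or knockdowns. EGR2, LIF, TNFRSF10C, TNFAIP3, TNF, IL8, CXCL1, ATM, CUL9, BID, NFKB1, NFKB2 and RELB were chosen after their values were seen. The comparison, the lists and the alternatives were chosen with earlier results of these data known. Some genes that the rule names are not reported here. Alternatives were 4 other scalings, another pseudocount of 8, background subtraction, testing only genes above the negative controls, leaving out each day and replicate, no replicate block, 1 difference per replicate and all 16 samples.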

Additional observations from a re-analysis of the deposited data

Results flagged for a closer look

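CD164, a sialomucin of haematopoietic progenitors, moved in opposite directions after day 3 in the 2 knockdowns, in every replicate. Its change was -0.08 and -0.36 in SUV3 replicates 1595 and 1727 and 0.23 and 0.26 in PNPase replicates 545 and 1717, a difference of -0.46 ± 0.15 (SE) on the log2 scale. The test of that difference did not pass in limma (adjusted p = 0.531). The sign of the SUV3 change turned under another scaling of the samples.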

How the results depend on the processing

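The main count of 21 genes after SUV3 knockdown was 52 (41 lower, 11 higher) when only genes above the negative controls, by a mean that includes day 3, were tested, 42 with a pseudocount of 8 and 47 (37 lower, 10 higher) in a fit on all 16 samples. It was 5 without day 4, 1 without day 5, 8 without day 6, 4 with 1 difference per replicate and 0 to 1 without 1 replicate. With no replicate block it was 8, all of them among the 21, against 21 with the pairing. With negative controls subtracted it was 28. Against day 3 alone, 0 genes on day 4 became 1 with no scaling, 1 with scaling to the total and 4 among genes above the negative controls. On day 5, 1 gene became 8 and on day 6, 1 gene became 13 among genes above the negative controls, and both became 0 with no replicate block. The difference between knockdowns gave 0 genes under the alternatives run, except without SUV3 replicate 1727. There 1 gene passed, IL1A (limma, adjusted p = 0.00596), named after its values were seen, whose mean as deposited, 4.88, is below the negative controls. The range over left-out replicates was 0 to 1. The difference between SUV3 replicates gave 0 in each setting run. No replicate could be left out of the single-day contrasts or of the replicate difference, for want of residual degrees of freedom. Over the named genes, called genes held their call in 162 settings and lost it in 142, while genes not called stayed so in 1158 and passed in 74, and no called change reversed its sign. The cause of these shifts was not tested. NFKBIA, TRAF4 and CCL3 kept their call under 12 of 16 alternatives, and BAX, MCL1, IFIH1, CCL20 and POLR2A under 5. Chemokines and other genes near the negative control level of 11.6 have changes limited by signal over background.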

Other observations

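Genes of immune killing and B cell signalling did not pass. PRF1, which encodes the pore-forming protein perforin, read 25 and 55 as deposited on day 3 and 7 to 32 later, with day 3 above all later samples on the scaled log2 scale and 2 later values at or below the negative control level. It missed the threshold (limma, adjusted p = 0.0559). BLNK, a B cell adaptor also found in macrophages, had 43 and 31 on day 3, 10 to 13 later in replicate 1595 and 19 to 24 in replicate 1727 (limma, adjusted p = 0.0804). CD70, a TNF family ligand, was at 7.63 on day 3 and 6.15 to 6.89 later in replicate 1595, and at 8.81 and 7.97 to 8.29 in replicate 1727 (limma, adjusted p = 0.11).

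IL32, an inflammatory cytokine with the highest deposited values quoted here, had 48879 and 44055 on day 3 and 27744 to 40291 later. Its change was -0.81 ± 0.27 (SE; limma, adjusted p = 0.175). The 8 proteasome genes had a median change of -0.10 with housekeeping scaling and 0.21 with none, where 0 of the 8 changes were negative, and none passed. The 6 autophagy genes had a median of 0.02 (0.32 with no scaling), with ATG12 at -0.40 ± 0.11 (SE; limma, adjusted p = 0.117).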
